A study of Mus musculus with 4 samples.

Results

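Wide CTCF sites kept at both times are CTCF binding sites of mouse liver. Their listed peaks were wide, by the limits given below, at the start of the day and again at its end. In a peak, DNA pulled down with an antibody against CTCF exceeds the background level, and the width of a peak is the distance in base pairs (bp) between its listed ends. The sites were chosen by their widths in both peak lists. A ZT0 peak and a ZT12 peak had to overlap each other by at least 1 bp and no other peak. The ZT0 peak had to be at least 379 bp wide, the ZT12 peak at least 340 bp, and the ZT12 peak could not be wider than the ZT0 peak by 30 bp or more. Of 5645 such overlapping pairs on the 19 autosomes, 883 met the rule (15.6%, 95% Wilson confidence interval 14.7 to 16.6%), and the other 4762 shared sites are the comparison. The wide kept sites make up 8.80% of the ZT0 peaks and 13.1% of the ZT12 peaks on autosomes. On chromosome X, 2 of 20 pairs met the widths and were not analysed further.

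The study profiled CTCF in the liver over the daily cycle with chromatin immunoprecipitation followed by sequencing (ChIP-seq). ZT0 is the time when the lights go on and ZT12 the time when they go off. Each time point has 2 biological replicates of liver from wild type male C57BL/6 mice that were 8 weeks old, fed ad libitum and kept in 12 h of light and 12 h of dark, and the labels differ between the groups in the time point alone. The peak lists used here hold 10113 peaks at ZT0 and 6799 at ZT12, far fewer than the shared sites that the study's paper counts. Shares, distances and absences below therefore hold for these lists only. One list of positions pools the replicates of a time point, labelled as peaks of both after a FIMO motif search, and it carries no height, strand or replicate. The depth behind a site is therefore unknown, the spread between animals cannot be measured, and the labelled tissue cannot be checked against marker genes. Sites are not replicates of a condition, so every interval below is a 95% interval that covers counting error over sites only.

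CTCF is a zinc finger protein that binds a long, directional DNA sequence, its motif. At many of its sites the cohesin ring stops moving along the chromosome, and the chromatin loops and domain borders that form there depend on the direction in which the motifs point. Cytosine methylation at certain CpG positions of the motif can weaken binding. CTCF also occupies many promoters, the regions next to transcription starts, of which a large part lie in CpG islands, stretches rich in G and C where CpG has not been depleted.

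The widths chose these sites and are given as a description. At ZT0 the wide kept sites had a median width of 469 bp, with quartiles of 426 and 551 bp and a largest value of 1031 bp. At ZT12 the median was 403 bp, with quartiles of 371 and 463 bp and a largest value of 1003 bp. In the remaining shared sites the medians were 327 bp at ZT0 and 277 bp at ZT12. Within the wide kept sites 781 peaks were narrower at ZT12, 4 were equal and 98 were wider by at most 29 bp, and the median difference from ZT0 to ZT12 was -62 bp. The rule leaves out sites that widened by 30 bp or more, so this split is partly set by it. In the remaining shared sites 3237 of 4762 peaks were narrower at ZT12, and the median difference was -42 bp. The ZT12 peak lay wholly inside the ZT0 peak in 415 wide kept sites (47.0%), next to 39.4% of the remaining shared sites. In 616 wide kept sites (69.8%) the midpoints were within 50 bp of each other, next to 69.0% in the remaining shared sites.

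The values on both sides of each limit were as follows. The smallest ZT0 width taken in was that of 2 sites, the first of them by position at chr4:137867448-137867826 (mm9, 379 bp, 363 bp at ZT12), in a coding exon 4.70 kb from the nearest start of Pink1, a mitochondrial kinase. Just outside are 8 sites, the first at chr4:61399562-61399939, with 378 bp at ZT0 and 379 bp at ZT12, between genes. The smallest ZT12 width taken in, 340 bp, was that of 8 sites, the first of them by position at the start of Ndufc1, a subunit of respiratory complex I (ZT0 peak chr3:51212689-51213107). Of the 12 nearest left out, the first, at chr2:151821925-151822345, has 421 bp at ZT0 and 339 bp at ZT12. At the limit on widening, the site at the start of Sh3bp5 (chr14:32249103-32249598) widened by 29 bp and was taken in, and 2 sites widened by 30 bp and were not, the first at the start of Mrps33 (chr6:39760811-39761252). The remaining shared sites fall into 1077 that reached the width at ZT0 only, 705 at ZT12 only, 108 that reached both but widened past the limit, and 2872 that reached neither.

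To ask what the wide kept sites share in sequence, a 19 bp weight matrix was learned from 5468 sites listed at a single time point, which are neither wide kept sites nor remaining shared sites. The highest-scoring base at each position of the matrix reads TGGCCACCAGGGGGCGCCA. A match is a stretch whose log-odds score, in bits, reaches 14.6, a score passed by 1% of 33025 windows of 200 bp placed 5 kb away from the listed peaks and outside any of them. All windows were centred on the midpoint of the ZT0 peak, so that the search covered the same length in wide and narrow peaks.

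Wide kept sites held more than 1 motif match far more often than the remaining shared sites. In 400 bp around the midpoint, 125 of 883 wide kept sites (14.2%, 12.0 to 16.6%) had 2 or more matches that did not overlap, next to 106 of 4762 remaining shared sites (2.23%, 1.84 to 2.69%). The difference was 11.9 percentage points (95% Newcombe interval 9.74 to 14.4). Of the unlisted 400 bp windows 5 kb away, 5 had 2 or more matches (0.0151%). The share was higher in the wide kept sites on each of the 19 autosomes, and within 5 classes of GC content the difference was 12.1 percentage points (9.76 to 14.4). Its size depended on the limits, at 6.45 percentage points (5.12 to 7.92) with both width limits lowered by 50 bp, 18.2 (14.6 to 22.3) with both raised, and 20.7 (17.6 to 23.9) at a looser match score of 8.03.

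Read in the other direction, 209 of the 1345 shared sites without a match in 400 bp were wide kept sites (15.5%, 13.7 to 17.6%). So were 549 of the 4069 with a single match (13.5%, 12.5 to 14.6%). Of the 216 with exactly 2 matches, 117 were wide kept sites (54.2%, 47.5 to 60.7%), as were 8 of the 15 with 3 or more. Sites that were wide at a single time point seldom had several matches, with 2.88% (2.04 to 4.06%) of the sites wide at ZT0 alone and 2.70% (1.73 to 4.17%) of those wide at ZT12 alone having 2 or more. The sites wide at ZT0 alone had a median ZT0 width of 422 bp and so were narrower at ZT0 too. Against the sites wide at ZT0 alone, a comparison chosen after the data were seen, the wide kept sites still differed by 11.3 percentage points (8.83 to 13.9). The 108 sites that were wide at both times and widened past the limit had 15.7% (10.1 to 23.8%), an interval that holds the value of the wide kept sites.

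Within the 117 wide kept sites with exactly 2 matches, the matches pointed the same way in 74 (63.2%, 54.2 to 71.4%), faced each other in 24 (20.5%) and pointed away from each other in 19 (16.2%). The remaining shared sites with 2 matches had nearly the same arrangement, with 63.6% (53.8 to 72.4%) on the same strand. From the start of one match to the start of the next, the distance in the wide kept sites was 72 bp at the median and between 20 and 376 bp. In distance classes of unequal width, that of 40 to 59 bp held 40 wide kept and 22 remaining shared sites, of which the wide kept sites made up 64.5% (52.1 to 75.3%). Distances of 200 bp or more were found in 29 wide kept and 15 remaining shared sites (65.9% wide kept, 51.1 to 78.1%). The wide kept sites made up 34.8% (8 of 23, 18.8 to 55.1%) at 19 to 39 bp, 17 of 34 (34.1 to 65.9%) at 60 to 79 bp, 37.9% (22.7 to 56.0%) at 80 to 119 bp and 12 of 24 (31.4 to 68.6%) at 120 to 199 bp. The intervals of all 6 classes overlap.

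The widths chose the sites, so their medians by number of matches are a description only. Wide kept sites with 2 or more matches had a median width of 524 bp at ZT0 and 436 bp at ZT12. Those with 1 match had 462 and 398 bp, and those without a match in the window 463 and 402 bp. The wide kept site with the highest motif score in the central 200 bp is a double site of this kind. It lies between genes 16.4 kb upstream of Rhbdd2, a rhomboid family gene, with a ZT0 peak at chr5:136091800-136092349 (550 bp) and a ZT12 peak of 385 bp. Its matches start 73 bp apart on the plus strand and score 20.7 and 26.8 of a possible 27.4. The sequence from the first to the last base of both matches is shown here with the matches in capitals, as an example of the most frequent arrangement.
Rhbdd2 site, chr5:136092039-136092130, plus strand, mm9: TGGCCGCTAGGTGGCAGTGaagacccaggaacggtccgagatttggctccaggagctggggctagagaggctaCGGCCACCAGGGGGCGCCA
A similar double site lies 72 bp upstream of the start of Lsm11, which encodes a part of the particle that trims histone messenger RNA. Its peaks are 566 bp wide at ZT0 (chr11:45758226-45758791) and 412 bp at ZT12, and its matches start 64 bp apart with scores of 19.1 and 26.1.
Lsm11 site, chr11:45758462-45758544, plus strand, mm9: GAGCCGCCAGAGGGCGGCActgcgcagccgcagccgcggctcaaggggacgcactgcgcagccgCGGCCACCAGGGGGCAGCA

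The 3 wide kept sites with the most matches in the 400 bp window are arrays, in which the motif is part of a repeated unit. The site with most in that window lies in an intron 7.23 kb from the nearest start of Sec22c, a gene of vesicle transport between endoplasmic reticulum and Golgi, with 858 bp at ZT0 (chr9:121606439-121607296) and 783 bp at ZT12. It holds 7 matches on the plus strand, each starting 45 bp after the one before, with scores from 24.0 to 26.7. All 7 units are printed because the match stays nearly constant along them, as do the bases between.
Sec22c site, chr9:121606773-121607061, plus strand, mm9: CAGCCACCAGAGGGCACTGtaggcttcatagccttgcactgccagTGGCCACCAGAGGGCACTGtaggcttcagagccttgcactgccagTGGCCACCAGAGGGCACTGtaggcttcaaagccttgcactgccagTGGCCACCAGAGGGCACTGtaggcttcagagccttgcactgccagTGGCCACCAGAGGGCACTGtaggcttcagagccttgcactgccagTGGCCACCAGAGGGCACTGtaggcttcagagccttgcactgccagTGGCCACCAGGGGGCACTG
In an intron 3.11 kb from the nearest start of Snx29, a sorting nexin gene, the 1010 bp ZT0 peak (chr16:11423407-11424416; 917 bp at ZT12) holds 11 identical matches, 6 of them in the 400 bp window, at steps of 57 bp.
Snx29 site, first 2 matches in the window, chr16:11423756-11423831, plus strand, mm9: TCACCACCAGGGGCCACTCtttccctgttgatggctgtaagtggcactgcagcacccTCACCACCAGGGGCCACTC
In an intron 20.001 kb from the nearest start of Eif3b, a subunit of a translation initiation factor, the ZT0 peak of 766 bp (chr5:140914917-140915682; 780 bp at ZT12) holds 10 identical matches on the minus strand at steps of 66 bp, 6 of them in the window. Read on the plus strand, its matches appear as the reverse complement.
Eif3b site, first 2 matches in the window, chr5:140915114-140915198, plus strand, mm9: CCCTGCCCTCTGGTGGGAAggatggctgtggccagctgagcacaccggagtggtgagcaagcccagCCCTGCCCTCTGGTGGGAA
Between genes 10.4 kb upstream of Uvrag, a gene of autophagy, a ZT0 peak of 647 bp (chr7:106299712-106300358; 665 bp at ZT12) holds 4 matches on the minus strand at steps of 64 to 70 bp, with scores from 21.8 to 22.8.
Uvrag site, chr7:106299917-106300139, plus strand, mm9: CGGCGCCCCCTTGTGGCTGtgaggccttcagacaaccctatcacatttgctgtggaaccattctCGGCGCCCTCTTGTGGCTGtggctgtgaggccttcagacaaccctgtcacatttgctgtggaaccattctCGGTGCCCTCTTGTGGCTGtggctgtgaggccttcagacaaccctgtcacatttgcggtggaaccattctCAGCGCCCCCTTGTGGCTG
Such arrays are rare. A period between 20 and 150 bp at which at least 70% of the bases of the 400 bp window repeat was found in 3 wide kept sites and in 2 remaining shared sites, and all 5 had 2 or more matches. This limit leaves out the Uvrag site, at 55.5%, and another wide kept site with 4 matches, at 68.4%. In 7 of the 8 wide kept sites with 3 or more matches in the window, all of these lie on a single strand. The exception, 19.9 kb upstream of a U7 small nuclear RNA gene on chromosome 3, has matches on both strands.

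Of the 10 widest sites, ranked by the smaller of their widths, 7 had no match in the 400 bp window and the other 3 are the arrays at Snx29, Sec22c and Eif3b. Over the whole ZT0 peak, a length that follows from the ranking, 2 of the 10 were without a match. In 4 of the 10 the peak held exactly 2 matches on either side of its middle, whose starts lay 563 bp apart at Trp53i11, 574 bp at Lbx1, 578 bp at Pvrl2 and 588 bp at Gm14206. The matches of these 4 peaks are shown, each on its own strand, to let their strength be compared.
Trp53i11, chr2:93039201-93039219, minus strand, score 23.5: TGGCCACAAGGTGGCAGCA
Trp53i11, chr2:93039764-93039782, plus strand, score 17.5: CTGCCACTTGGGGGCAGCA
Lbx1, chr19:45295223-45295241, plus strand, score 20.2: CGACCAGCAGAGGGAGCTC
Lbx1, chr19:45295797-45295815, plus strand, score 17.9: GTGCCGCTAGGTGGCACTC
Pvrl2, chr7:20335076-20335094, minus strand, score 22.9: TGACCAGTAGGGGGCGCAG
Pvrl2, chr7:20335654-20335672, plus strand, score 15.6: CTTCCGCGAGGGGGCAGCA
Gm14206, chr11:100143493-100143511, minus strand, score 17.4: TTACCAGCAGATGGTGCTC
Gm14206, chr11:100144081-100144099, plus strand, score 18.5: GCGCCTGCAGAGGGCAGCA
The matches pointed away from each other at Trp53i11, Pvrl2 and Gm14206, and the same way at Lbx1. The Trp53i11 peak (chr2:93038991-93039999, 1009 bp and 926 bp at ZT12) has its midpoint in a non-coding part of an exon 419 bp after the start, and the peak at Pvrl2, which encodes the cell adhesion protein nectin-2 (chr7:20334879-20335834, 956 and 800 bp), 435 bp before the start. The peak nearest to Lbx1, a homeobox gene (chr19:45295037-45296002, 966 and 917 bp), lies between genes 14.8 kb from the start, and that nearest to Gm14206 (chr11:100143377-100144300, 924 and 810 bp) in an intron 8.76 kb from it.

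The widest of all wide kept sites, with 1031 bp at ZT0 (chr11:95119906-95120936) and 1003 bp at ZT12, held no match over its whole length. It lies between genes 2.42 kb upstream of Tac4, a tachykinin precursor gene, and its central 200 bp have a GC content of 66.0% and a CpG ratio of 1.07. The other of the 10 without a match is between genes 23.5 kb from the nearest start of Sorl1, a sorting receptor gene (chr9:41758696-41759709, 1014 and 789 bp). The only other site of the 10, on chromosome 18, held 1 match, and its sequence is not shown. Counted over the whole ZT0 peak, 159 wide kept sites (18.01%, 15.6 to 20.7%) had 2 or more matches. Of the 147 with exactly 2, the matches started 200 bp or more apart in 60 (40.8%, 33.2 to 48.9%). The length searched here is the width that chose the sites, so these values are not set beside those of the narrower remaining shared sites.

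Whether a wide kept site held any match at all depended on the length searched. In 200 bp around the midpoint 585 of 883 did (66.3%, 63.1 to 69.3%), next to 3518 of 4762 remaining shared sites (73.9%, 72.6 to 75.1%), a difference of -7.63 percentage points (-11.0 to -4.33). Within 5 classes of GC content this difference was -2.59 percentage points (-6.11 to 0.929), an interval that holds 0. In 400 bp the shares were 76.3% and 76.1%, a difference of 0.186 percentage points (-2.96 to 3.14). The mean of the best score in 200 bp was 14.6 in the wide kept sites (SD 8.85) and 17.1 in the remaining shared sites (SD 6.34), a difference of -2.49 (-3.11 to -1.88), and in 400 bp the difference was -0.395 (-0.807 to 0.0166). At a looser score of 8.03, which 5% of the windows 5 kb away pass, 80.5% of the wide kept and 91.1% of the remaining shared sites had a match in 200 bp. A site without a match at the stricter score can therefore still hold a weaker one. The 200 bp window also covers a smaller part of a wide peak than of a narrow one. The lists are labelled as after a FIMO motif search, and whether a match was needed for a peak to be listed is not known. How far that search set the shares with a match was not tested.

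Where a single match was present, it lay near the middle of the peak. Its centre was 30.5 bp from the ZT0 midpoint at the median in 549 wide kept sites and 23.0 bp in the remaining shared sites. In the direction of the motif the ZT0 peak of the wide kept sites reached 234.5 bp upstream of the centre of the match and 227.5 bp downstream at the median. The mean difference between the sides was -5.74 bp (-16.1 to 4.58) at ZT0 and 3.62 bp (-6.85 to 14.1) at ZT12. In the remaining shared sites it was -1.76 bp (-4.32 to 0.807) at ZT0 and 5.24 bp (2.37 to 8.10) at ZT12, a small extension downstream that the wider ZT12 interval of the wide kept sites also holds. Whether the wide kept sites share it cannot be told from these values.

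The matches of the wide kept sites also differed in their bases. The best match contained a CpG at positions 5 and 6 in 140 of 585 wide kept sites (23.9%, 20.7 to 27.6%) and in 305 of 3518 remaining shared sites (8.67%, 7.78 to 9.65%), a difference of 15.3 percentage points (11.8 to 18.99). Positions are counted from the 5′ end of the match in the direction of the matrix. At positions 15 and 16 a CpG was present in 59.5% (55.5 to 63.4%) and 45.6% (43.9 to 47.2%), a difference of 13.9 percentage points (9.57 to 18.2). A CpG at both places was found in 111 wide kept sites (18.97%, 16.0 to 22.4%) and in 5.46% (4.75 to 6.26%) of the remaining shared sites, and a CpG at neither in 35.6% and 51.2%. These positions were singled out after the matches were seen, as the places where CpG was most frequent. CpG was also more frequent in the wide kept sites at positions 1 and 2 (13.8% and 7.70%, difference 3.42 to 9.29), 17 and 18 (11.3% and 3.35%, 5.52 to 10.8) and 18 and 19 (7.86% and 3.21%, 2.63 to 7.17), so the difference was not limited to the positions singled out.

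The CpG differences were present away from promoters. Over 1 kb from a transcription start, 17.8% of the wide kept matches (14.3 to 21.8%, 70 of 394) and 5.78% of the remaining ones (5.00 to 6.69%) had the CpG at positions 5 and 6. Within 1 kb of a start the shares were 36.6% (30.1 to 43.7%, 70 of 191) and 23.8% (20.5 to 27.5%). At positions 15 and 16 the difference was 11.9 percentage points (6.62 to 17.05) over 1 kb from a start. Within 1 kb it was 7.34 (-0.505 to 14.6), an interval that holds 0. Within 5 classes of GC content the difference at positions 5 and 6 was 7.04 percentage points (3.25 to 10.8), and at positions 15 and 16 it was 5.29 (0.90 to 9.68). The window that gave the GC content includes the match. The most frequent base was the same at 18 of the 19 positions in both groups. At the last position the wide kept sites had no clear preference among C (32.3%), G (31.6%) and A (30.8%), while the remaining shared sites had A in 40.4%.

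The 10 wide kept sites with the highest scores in the central 200 bp had scores from 25.6 to 26.8 there. After the site near Rhbdd2 come single matches in an intron 9.91 kb from the nearest start of Gng7, which encodes a gamma subunit of G proteins (chr10:80450824-80451228), and 14.5 kb upstream of Micall2 (chr5:140226559-140226960). Both peaks are near the lower width limits, with 405 and 402 bp at ZT0 and 358 and 342 bp at ZT12. The others lie 15.8 kb upstream of Olfm2, at Lsm11, 5.95 kb upstream of Mex3a, in the Sec22c array, between genes near a long non-coding RNA gene, in an intron nearest to Mfge8 and 724 bp after a start of Qrich2. Among these 10 sites, 2 are within 1 kb of a start and 3 have 2 or more matches, next to 36.2% and 14.2% of all wide kept sites. Counts of this size allow no statement on a difference.

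The best matches of 3 of the highest-scoring sites are printed to show variation at positions 15 and 16.
Gng7 site, chr10:80451021-80451039, minus strand: TGGCCACCAGGGGGCAGCA
Mex3a site, chr3:88330347-88330365, minus strand: TGGCCACCAGGTGGCGCCG
Mfge8 site, chr7:86285923-86285941, plus strand: TGGCCAGCAGGTGGCGCCA

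The surroundings of the wide kept sites were richer in G and C. In 200 bp around the midpoint the GC content was 59.3% on average (SD 8.46) in the wide kept sites and 54.4% (SD 7.48) in the remaining shared sites, a difference of 4.92 percentage points (4.33 to 5.52) that had the same direction on all 19 autosomes. It was 57.4% in the sites wide at ZT0 alone and 57.3% in those wide at both times that widened past the limit. The difference was 5.34 percentage points 200 bp to the left of the midpoint and 4.33 to the right, 2.92 and 2.87 at 500 bp, 1.18 and 1.32 at 1000 bp, and 0.911 (0.348 to 1.47) and 0.422 (-0.141 to 0.986) at 2000 bp. Beyond 200 bp the difference became smaller with distance on both sides.

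The CpG ratio, the number of CpG over the number that the C and G content would give, was 0.533 (SD 0.291) in the wide kept sites and 0.380 (SD 0.257) in the remaining shared sites, a difference of 0.153 (0.133 to 0.174). Windows with at least 50% GC and a ratio of at least 0.6, the levels often used for CpG islands, were found in 342 wide kept sites (38.7%, 35.6 to 42.0%) and in 17.4% (16.4 to 18.5%) of the remaining shared sites. The sites wide at ZT0 alone had 30.3% (27.6 to 33.1%) and those that widened past the limit 32.4% (24.3 to 41.7%). Over 1 kb from a start the shares of the wide kept and remaining shared sites were 22.9% (19.6 to 26.6%) and 8.57% (7.72 to 9.50%).

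More wide kept sites lay at promoters. The midpoint was within 1 kb of an annotated transcription start in 320 of 883 (36.2%, 33.1 to 39.5%) and in 947 of 4762 remaining shared sites (19.9%, 18.8 to 21.0%), a difference of 16.4 percentage points (13.0 to 19.8). Chromosome 13 was the exception among the 19 autosomes, with 19.05% and 19.14%. Exons further from a start held 6.91% of the wide kept sites, introns 19.9% and the space between genes 36.9%. In the remaining shared sites these shares were 5.06%, 30.3% and 44.8%, so introns held fewer of the wide kept sites (-10.3 percentage points, -13.2 to -7.30). Against the sites wide at ZT0 alone, of which 29.9% lay near a start, the difference was smaller, at 6.34 percentage points (2.16 to 10.5). The 108 sites that were wide at both times and widened past the limit had 37.0% (28.5 to 46.4%), an interval that holds the value of the wide kept sites.

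Of the 320 wide kept sites near a start, 285 were nearest to a start of a protein-coding gene, 212 (66.3%, 60.9 to 71.2%) had their midpoint upstream of it and 49 (15.3%, 11.8 to 19.7%) had starts on both strands within 1 kb. Starts on both strands were found in 9.61% (7.89 to 11.7%) of the remaining shared sites near a start, a difference of 5.70 percentage points (1.62 to 10.4). The upstream share of the remaining shared sites was 68.6% (65.6 to 71.5%).

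Among the wide kept sites, multiple matches were less frequent at promoters. Near a start 25 of 320 (7.81%, 5.35 to 11.3%) had 2 or more matches, and over 1 kb away 100 of 563 (17.8%, 14.8 to 21.1%), a difference of -9.95 percentage points (-14.1 to -5.41). Both values were above those of the remaining shared sites, which had 1.06% near a start and 2.52% away from one. The 209 wide kept sites without a match in 400 bp were near a start in 47.8% of cases, against 32.4% of the 1136 remaining shared sites without one (difference 15.5 percentage points, 8.23 to 22.7). Wide kept sites with 1 match were near a start in 35.5%, and those with 2 or more in 25 of 125. The share fell with the number of matches in the remaining shared sites too, to 16.2% with 1 match and 9.43% with 2 or more.

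Of the 9 genes for CTCF, cohesin and its regulators found on autosomes, 2 had a wide kept site at a start. The site at the start of Ctcf (chr8:108160479-108160943, 465 and 478 bp) has 77.5% GC and a CpG ratio of 0.936, with no match at the stricter score and a best score of 12.4. The site at the start of Stag1, a cohesin subunit (chr9:100543726-100544264, 539 and 482 bp), has 2 matches on the plus strand, the stronger with a score of 24.2. Smc3, Pds5a and Pds5b had a remaining shared site at a start. For all 21281 protein-coding genes on autosomes, 321 had a wide kept site at a start (1.51%) and 878 a remaining shared site (4.13%).

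None of the 18 core clock and clock output genes found on autosomes and none of the 14 hepatic transcription factor genes had a wide kept site within 1 kb of a start. Among the clock genes Bhlhe40, a repressor, had a remaining shared site there, as did Foxa3, Cebpa and Cebpb among the hepatic factors. Of 39 Hox genes, which pattern the body axis, Hoxa7 had a wide kept site (chr6:52171549-52172073, 525 and 458 bp) with a match of score 14.9. Hoxa10 and Hoxb5 had a remaining shared site at a start. Among the ribosomal protein genes, Rpl5 had a wide kept site with a match of score 17.4 in the central 200 bp (chr5:108329327-108329744), and Rps3a had one without a match (chr3:85946482-85946929). A remaining shared site lay at a start of 7 ribosomal protein genes. Lists of this size allow no statement on how they differ from all genes.

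The wide kept sites were spread over the autosomes. They made up between 10.3% of the shared sites on chromosome 12 (21 of 204, 6.83 to 15.2%) and 20.5% on chromosome 18 (32 of 156, 14.9 to 27.5%), and these intervals overlap. The nearest shared site was itself a wide kept site for 146 wide kept sites (16.5%) and for 719 remaining shared sites (15.1%), a difference of 1.44 percentage points (-1.09 to 4.21). Neighbours share sites, so this interval is too narrow, and a tendency to lie next to each other was not detected. The distance to the nearest shared site was 42.1 kb at the median for wide kept sites and 53.7 kb for the remaining ones. A peak listed at ZT0 only lay within 10 kb of 12.7% (10.6 to 15.0%) of the wide kept and 11.7% (10.8 to 12.6%) of the remaining shared sites.

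Consecutive wide kept sites that had a match and lay at most 200 kb apart formed 115 neighbouring pairs. Their motifs pointed towards each other in 24 (20.9%, 14.4 to 29.2%), away from each other in 18 (15.7%, 10.1 to 23.4%) and the same way in 73 (63.5%, 54.4 to 71.7%). Of 1700 such pairs of remaining shared sites, 24.4% pointed towards each other, 28.1% away and 47.5% (45.2 to 49.9%) the same way. The same-way share was higher in the wide kept sites by 15.9 percentage points (6.54 to 24.5), the share pointing away was lower (-12.5, -18.4 to -4.45), and the difference of the convergent share was -3.48 percentage points (-10.2 to 5.06). The strand is that of the best match, other peaks can lie between the sites of a pair, and these intervals too are narrowed by shared sites.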

How the data were processed

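CTCF ChIP-seq was done on mouse liver at ZT0 and ZT12 (4 samples). The authors aligned reads to NCBIM37 (mm9) with Bowtie2, filtered them with SAMtools, removed duplicates and called peaks with MACS2; FastQC and deepTools are also named in the submitters' notes, which give no versions. The deposited values are peak starts and ends, 1 pooled list per time point, labelled as after a FIMO search whose settings are not given in the sources used here. Sequence came from NCBIM37 and starts, exons and genes from the GENCODE annotation of that build. The matrix was seeded with the 8-base word in greatest excess over sequence 5 kb away and refined in 3 rounds. Shares were compared with Wilson and Newcombe intervals and means with their standard errors, without p-values. Python 3.11.15, NumPy 2.4.6 and pysam 0.24.0 were used. The methods were tested on simulated data. The sites, the gene lists and the rule for named sites (the 10 widest, the 10 of highest score, the 10 with most matches in 400 bp with ties broken by score, those at the width limits and those at starts of listed genes) were chosen with earlier results of these data known. The alternatives changed the overlap, widths, midpoint, window, score, promoters and GC classes. Base differences within the match, short repeats, matches over whole peaks and the share on the same strand were added after the data were seen. For the ribosomal protein genes, 1 item is not reported here.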

Additional observations from a re-analysis of the deposited data

How the results depend on the processing

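Of 50 alternatives for the differences between wide kept and remaining shared sites, 47 kept the direction, and their intervals held or left out 0 as the main one did. The 47 include 2 for wide nearest neighbours, where the main interval and those of the alternatives all held 0. Alternatives over the whole ZT0 peak, a length set by the widths that chose the sites, are not counted. The difference in the share with a match moved from -7.63 percentage points to 0.186 (-2.96 to 3.14) in 400 bp, an interval that holds 0. Over the whole ZT0 peak (chosen after seeing the data) it was 2.82 (-0.222 to 5.64), an interval that holds 0. The length searched there follows the widths, so that value is not read as a change of direction. Within 5 classes of GC content the difference was -2.59 and no longer past 0. That of the mean score was -0.395 in 400 bp and no longer past 0. The cause was not tested. The number of sites was 435 with both width limits raised by 50 bp and 1727 with both lowered. The convergent share was 15.0% at most 100 kb apart. All these alternatives for GC content, the CpG ratio, starts and 2 or more matches kept their direction. The difference in 2 or more matches moved from 11.9 percentage points to 6.45 with both width limits lowered, 18.2 with both raised and 20.7 at the looser score. That of the mean score was -1.60 with both limits lowered, and that of wide nearest neighbours 2.75 at most 50 kb apart. No paired analysis was possible because no listed peak carries a replicate number, so no replicate could be left out either. Repeat content was not run because the genome sequence is not soft-masked, nor was a stricter peak threshold, since the lists hold no score. Width could not be set beside peak height or depth, which are unknown, and sites under the calling threshold at one time are not listed.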
